A study of Mus musculus with 6 samples.

Results

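DNA replication genes encode the proteins that copy the genome once per cell cycle, and their transcripts are a common measure of how much of a tissue is preparing for or passing through S phase. The list held 42 named genes, chosen by name but with earlier results of these data known. On the arrays, 40 of them had a probe set annotated to a single gene symbol, out of 22180 genes measured in this way. The exceptions were Rfc4 and Ccne2, whose probe sets are annotated together with a neighbouring gene, and they are not analysed here. The genes fall into 8 groups by role, namely origin licensing, helicase activation, the sliding clamp and its loader, polymerases and primase, strand processing, nucleotide supply, chromatin at the fork, and control of entry into S phase.

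In G1 the origin recognition complex, Cdc6 and Cdt1 load the MCM ring onto origins. Cdc45 and the GINS complex then turn the ring into a moving helicase, and polymerases held by the PCNA clamp copy both strands. Cyclin E and the E2F factors switch much of this machinery on at the G1/S transition, and E2F sites in promoters are a known feature of replication genes.

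The tumours were mouse colorectal cancers taken at 1 to 1.5 cm3. In 3 mice the cells were injected into white adipose tissue, which stores fat, and in 3 mice into non-adipose tissue, and each tumour was read on its own array. The labels do not name the mouse strain, the animals' age, the cancer cell line or the exact sites of injection. Each value is a log2 signal of a probe set that reads a gene along its exons, so a difference of 1 is a doubling.

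All 6 arrays were alike in level, with medians between 5.66 and 5.69 and correlations across genes between 0.983 and 0.995. The epithelial keratins Krt8 and Krt18 gave log2 signals of 9.46 to 10.04 and 9.14 to 9.85 over the 6 arrays. Of the 13 intestinal epithelial markers, which include both keratins, 7 lay below the median on every array, 4 above it on every array and 2 did neither. Epcam lay between 4.61 and 5.29, the intestinal transcription factor genes Cdx1 and Cdx2 between 4.97 and 5.32 and between 5.08 and 5.63, and Vil1 between 4.39 and 4.88, whereas Cdh1 lay between 6.60 and 7.95 and Muc2 between 5.96 and 6.09. Of 9 adipocyte markers, 3 lay below the median on every array, among them the adipocyte hormone gene Adipoq between 4.10 and 4.27, 3 above it on every array, among them Fabp4 between 5.78 and 7.86, and 3 did neither. No detection calls were used here, so it was not tested whether such low signals exceed background. Of the members, Orc1 had the lowest mean log2 signal, 5.74, and Pcna the highest, 10.6. White adipose replicate 1 had high skin epithelial markers (a mean of 8.59 over 10 genes). Non-adipose replicate 3 had a raised mean of these markers (6.36), through part of the list. Krtdap and Lor were at 9.88 and 8.60 in white adipose replicate 1, but at 5.48 and 5.59 in non-adipose replicate 3. Skeletal muscle markers were raised in non-adipose replicates 1 (a mean of 6.33 over 12 genes) and 3 (6.90), against 5.53 to 5.70 on the other 4 arrays. Results that rest on these arrays are also given without them.

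Promoters of some replication genes are shown here as a description. Their bearing on the levels of these genes was not tested. RefSeq (build GRCm38.p6) held a promoter for 33 of the 40 genes, and the 250 bases before the annotated start were searched on both strands. Searched were 4 forms of the E2F site (TTTCCCGC, TTTGGCGC, TTTCGCGC and TTTGCCGC) and the CCAAT box (CCAAT), whose factor NF-Y serves many cell cycle promoters. An E2F form was present for 9 of 33 replication genes (27.3%), against 1 of 19 mitosis genes (5.26%) and 2.70% of the 16990 measured genes with a promoter in the table. CCAAT was present for 21 of 33 (63.6%), against 17 of 19 mitosis genes (89.5%) and 38.7% of all. No E2F match overlapped a CCAAT match in these windows. Capitals mark both motifs below. A match of letters is not evidence of binding, and no match says only that these letters are not in the window.

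The promoters of the 3 members whose log2 signal ranged most widely over the 6 arrays among those with a promoter in the table (Prim1 by 0.60, Tk1 by 0.59 and Gins3 by 0.55) are followed by those of the 2 with the narrowest range (Rfc1 by 0.14 and Ccne1 by 0.19).
Prim1, chr10:128014965-128015214, plus strand: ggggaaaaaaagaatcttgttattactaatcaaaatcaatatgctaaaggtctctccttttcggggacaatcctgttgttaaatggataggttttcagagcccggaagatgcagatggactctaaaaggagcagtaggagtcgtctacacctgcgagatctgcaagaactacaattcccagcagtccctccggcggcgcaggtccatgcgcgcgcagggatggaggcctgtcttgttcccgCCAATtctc
Tk1, chr11:117826015-117826264, minus strand: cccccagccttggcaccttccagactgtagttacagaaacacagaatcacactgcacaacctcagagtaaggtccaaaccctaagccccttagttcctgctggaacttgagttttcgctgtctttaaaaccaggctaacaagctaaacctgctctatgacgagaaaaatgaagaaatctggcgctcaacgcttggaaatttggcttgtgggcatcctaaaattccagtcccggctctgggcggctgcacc
Gins3, chr8:95633309-95633558, plus strand: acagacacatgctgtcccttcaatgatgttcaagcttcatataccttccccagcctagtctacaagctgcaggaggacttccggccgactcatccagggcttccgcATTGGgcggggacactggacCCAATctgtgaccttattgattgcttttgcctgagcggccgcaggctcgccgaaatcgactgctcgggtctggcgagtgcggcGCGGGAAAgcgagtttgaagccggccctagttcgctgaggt
Rfc1, chr5:65335640-65335889, minus strand: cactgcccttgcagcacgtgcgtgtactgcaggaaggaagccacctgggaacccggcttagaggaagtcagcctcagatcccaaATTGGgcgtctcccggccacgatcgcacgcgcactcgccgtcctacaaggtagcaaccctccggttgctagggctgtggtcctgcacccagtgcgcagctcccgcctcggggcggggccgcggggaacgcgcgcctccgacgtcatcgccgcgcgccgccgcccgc
Ccne1, chr7:38107491-38107740, minus strand: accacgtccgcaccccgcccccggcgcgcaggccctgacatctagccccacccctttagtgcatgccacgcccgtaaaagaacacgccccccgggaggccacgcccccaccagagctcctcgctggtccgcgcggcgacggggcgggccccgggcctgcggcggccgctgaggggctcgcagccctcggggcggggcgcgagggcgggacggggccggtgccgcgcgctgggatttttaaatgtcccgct
Among these, an E2F form stood only in Gins3, beginning 41 bases before the start. Prim1, Gins3 and Rfc1 held CCAAT in one orientation or the other, beginning 9 bases before the start in Prim1 and 166 bases before it in Rfc1.

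Members of the MCM ring carried several of the matches. Mcm2 and Mcm3 had a promoter in the table but no E2F form. The windows of Mcm5, Mcm6 and Mcm7 are shown as examples, chosen for their E2F matches and after their values were seen.
Mcm5, chr8:75109259-75109508, plus strand: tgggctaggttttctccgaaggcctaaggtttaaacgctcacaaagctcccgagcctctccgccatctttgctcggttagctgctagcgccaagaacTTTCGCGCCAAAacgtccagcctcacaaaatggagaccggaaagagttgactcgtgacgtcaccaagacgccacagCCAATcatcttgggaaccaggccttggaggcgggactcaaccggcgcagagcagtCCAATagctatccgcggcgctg
Mcm6, chr1:128359706-128359955, minus strand: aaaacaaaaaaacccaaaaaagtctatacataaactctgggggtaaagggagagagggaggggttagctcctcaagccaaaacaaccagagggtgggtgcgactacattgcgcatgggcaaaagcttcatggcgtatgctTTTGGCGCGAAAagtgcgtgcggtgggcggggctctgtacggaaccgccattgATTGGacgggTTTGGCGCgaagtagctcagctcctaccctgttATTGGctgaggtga
Mcm7, chr5:138171884-138172133, minus strand: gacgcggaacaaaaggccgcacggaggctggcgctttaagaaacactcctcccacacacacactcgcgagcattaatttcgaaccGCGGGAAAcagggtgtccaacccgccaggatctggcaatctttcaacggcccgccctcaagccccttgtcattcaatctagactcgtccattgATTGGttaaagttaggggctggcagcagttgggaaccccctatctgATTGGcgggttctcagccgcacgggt
In Mcm5 the 2 E2F matches, 1 on each strand, overlap and begin 153 bases before the start. Mcm6 has an overlapping pair of the same forms at 110 bases and a further match at 47 bases. Mcm7 has 1 match at 165 bases in this window, and an alternative Mcm7 start in the table has none. Each of these windows has 2 CCAAT boxes. The median log2 difference between sites was -0.17 for the 9 genes with an E2F match and -0.15 for the 24 without, a description of these windows and not a test.

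The comparison of sites asked whether tumours grown in white adipose tissue differed from those grown in non-adipose tissue in the level of their replication genes. Of the 40 genes, 39 had a lower mean in white adipose tumours, against 50.2% of all genes. The differences were small. Their median was -0.15 on the log2 scale, against -0.00043 over all genes, and their mean of -0.14 amounts to 1.10-fold lower. They ran from -0.43 for Gins1 to 0.018 for Gins4. None passed the test. Limma with Benjamini-Hochberg adjustment over all genes called 0 of 40 (0% of all genes), and the smallest adjusted p of a member was 0.936. At an unadjusted p under 0.05, 3 of 40 were lower and 0 higher, against 2.13% of all genes lower and 1.66% higher. The arrays of the groups did not overlap for 5 genes, Mcm3, Mcm6, Mcm7, Gins1 and Pola1, all lower in white adipose tumours, against 3.97% of all genes, and 0 members were apart in the other direction, against 3.34% of all genes. The genes share their arrays and ranked them alike, so 39 of 40 is not a count of independent observations.

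**Figure D1:**
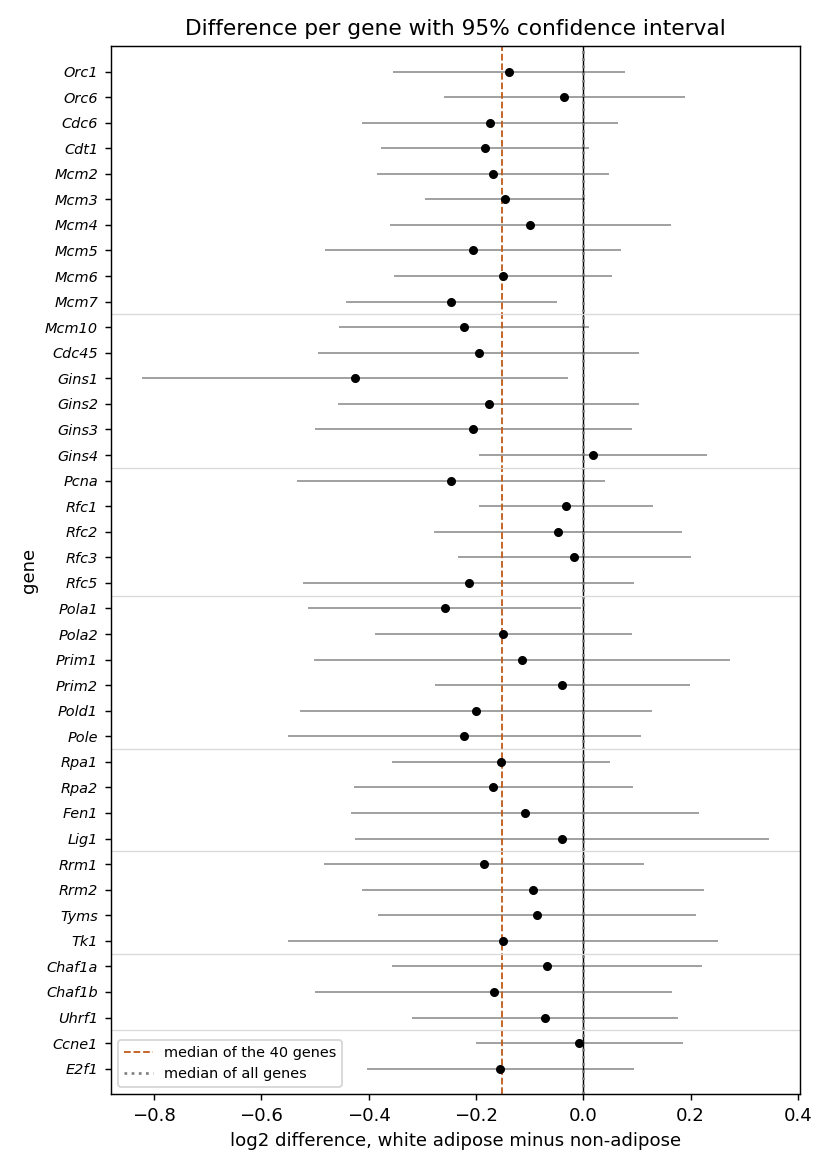
Log2 difference of each of the 40 genes, white adipose minus non-adipose (horizontal axis), with limma's 95% confidence interval; genes are grouped by role and separated by grey lines. All but Gins4 lie left of 0, the dashed line marks their median of -0.15, the dotted line the median of all genes near 0, and only Mcm7, Gins1 and Pola1 have intervals that leave out 0.

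Origin licensing genes were lower in white adipose tumours by mean in 10 of 10, with a median difference of -0.16. Mcm7, a subunit of the ring, had log2 signals of 8.96, 8.87 and 8.98 in white adipose replicates 1, 2 and 3, against 9.18, 9.30 and 9.06 in non-adipose replicates 1, 2 and 3. Every white adipose array lay below every non-adipose array, with a difference of -0.25 (SE 0.080, adjusted p = 0.936). Cdc6, which helps to load the ring, had 7.28, 7.13 and 7.28 in white adipose tumours and 7.35, 7.58 and 7.28 in non-adipose tumours. White adipose replicates 1 and 3 and non-adipose replicate 3 held the same value, and the difference was -0.17 (SE 0.098), or -0.087 without non-adipose replicate 2.

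The differences of the 6 subunits of the ring ran from -0.098 for Mcm4 to -0.25 for Mcm7. Mcm3 had 9.09, 9.07 and 9.01 in white adipose tumours and 9.21, 9.26 and 9.15 in non-adipose tumours, a difference of -0.15 (SE 0.061). Its groups did not overlap, and its spread was among the narrowest of the list. Mcm6 had 9.74, 9.66 and 9.80 in white adipose tumours, against 10.02, 9.82 and 9.81 in non-adipose tumours. Non-adipose replicate 1 stood above the other 5 arrays, and the gap between white adipose replicate 3 and non-adipose replicate 3 was small. The difference of Mcm6 was -0.15, and -0.080 without non-adipose replicate 1. Of the remaining licensing genes, Mcm5 differed by -0.21, Cdt1, the loader that is destroyed in S phase, by -0.18, Mcm2 by -0.17, the origin recognition subunit Orc1 by -0.14 and Orc6 by -0.036.

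Helicase activation genes held both ends of the list. Gins1, a GINS subunit, had 6.76, 6.57 and 6.69 in white adipose tumours and 7.04, 7.44 and 6.82 in non-adipose tumours. Its groups did not overlap, and non-adipose replicate 2 stood well above the rest. The difference was -0.43 (SE 0.16, adjusted p = 0.936), 1.34-fold lower, and it shrank to -0.25 without non-adipose replicate 2. The other GINS subunits were at -0.18 for Gins2, -0.20 for Gins3 and 0.018 for Gins4. Whether the subunits of this complex differ from each other was not tested. Gins4 had 8.05, 8.01 and 7.89 in white adipose tumours and 8.01, 8.07 and 7.82 in non-adipose tumours, with the groups interleaved. Mcm10 was at -0.22 and Cdc45, the partner of GINS, at -0.19.

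Among the clamp and its loader, Pcna, the sliding clamp itself, had 10.61, 10.25 and 10.49 in white adipose tumours, against 10.80, 10.75 and 10.54 in non-adipose tumours. White adipose replicate 1 lay above non-adipose replicate 3, so the groups overlapped. The difference was -0.25 (SE 0.12, adjusted p = 0.936), and -0.15 without white adipose replicate 2. Of the loader subunits, Rfc5 was at -0.21 (SE 0.13), with a 95% interval of -0.52 to 0.095, and Rfc1 at -0.033, Rfc2 at -0.047 and Rfc3 at -0.016 had differences below their standard errors of 0.067 to 0.095. Whether Rfc5 differs from the others was not tested. All 5 measured genes of the group had a lower mean, with a median of -0.047.

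Polymerase and primase genes were lower by mean in 6 of 6, with a median of -0.17. Pola1, the catalytic subunit of the priming polymerase, had 8.42, 8.20 and 8.35 in white adipose tumours and 8.58, 8.74 and 8.42 in non-adipose tumours. The highest white adipose and the lowest non-adipose array nearly met, and the difference was -0.26 (SE 0.10, adjusted p = 0.936). Prim1, the small primase subunit, had 8.30, 8.09 and 8.21 in white adipose tumours and 8.38, 8.58 and 7.98 in non-adipose tumours. Its highest and lowest arrays were both non-adipose, and its difference of -0.11 (SE 0.16) became 0.018 without non-adipose replicate 2 and -0.28 when replicate 3 of that site was left out. Leaving out white adipose replicate 2 gave -0.058. Pole and Pold1, the leading and lagging strand polymerases, were at -0.22 and -0.20, Pola2 at -0.15 and Prim2 at -0.039.

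Strand processing genes, which coat single strands and join the lagging strand fragments, were lower by mean in 4 of 4. Rpa1, the large subunit of the single-strand binding protein, had 8.30, 8.20 and 8.37 in white adipose tumours and 8.44, 8.55 and 8.33 in non-adipose tumours. Its groups overlapped through white adipose replicate 3 and non-adipose replicate 3, with a difference of -0.15 (SE 0.083), or -0.098 without non-adipose replicate 2. Lig1, the DNA ligase of replication, had 8.20, 7.91 and 8.08 in white adipose tumours and 8.24, 8.30 and 7.78 in non-adipose tumours. Non-adipose replicate 3 was the lowest of the 6 arrays. The difference of -0.040 (SE 0.16) turned to 0.026 without non-adipose replicate 1, to 0.059 if replicate 2 of that site was left out instead, and to 0.036 without white adipose replicate 2. It was -0.20 without non-adipose replicate 3 and -0.11 if white adipose replicate 1 was left out. Rpa2 was at -0.17 and the flap nuclease Fen1 at -0.11.

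Nucleotide supply genes were lower by mean in 4 of 4. Rrm1, the large subunit of ribonucleotide reductase, had 9.64, 9.42 and 9.64 in white adipose tumours and 9.83, 9.91 and 9.52 in non-adipose tumours, a difference of -0.18 (SE 0.12). Leaving out replicate 2 of either site gave -0.11, and leaving out non-adipose replicate 3 gave -0.30. Tk1, the thymidine kinase of S phase, had 8.83, 8.53 and 8.80 in white adipose tumours and 8.94, 9.12 and 8.55 in non-adipose tumours, a difference of -0.15 (SE 0.16). In both genes non-adipose replicate 3 lay below white adipose replicates 1 and 3. The difference of Tk1 was -0.31 without non-adipose replicate 3, and with replicate 2 left out it was -0.055 (white adipose) or -0.025 (non-adipose). Rrm2, the regulated small subunit, was at -0.094 and the thymidylate synthase gene Tyms at -0.086.

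Chaf1b, a subunit of the factor that puts histones on new DNA, had 8.30, 8.18 and 8.28 in white adipose tumours and 8.47, 8.66 and 8.13 in non-adipose tumours. Non-adipose replicates 1 and 2 were above every white adipose array and replicate 3 was below them all, with a difference of -0.17 (SE 0.14), or -0.31 without replicate 3 of that group and -0.048 without its replicate 2. Chaf1a was at -0.068 and Uhrf1, which guides maintenance of DNA methylation, at -0.072. E2f1, the transcription factor, had 7.72, 7.45 and 7.47 in white adipose tumours and 7.69, 7.83 and 7.60 in non-adipose tumours, a difference of -0.15 (SE 0.10), or -0.24 without white adipose replicate 1. It was -0.094 if non-adipose replicate 2 was left out. White adipose replicate 1 ranked second of the 6 arrays for this gene. The cyclin gene Ccne1 was at -0.0075 (SE 0.079), close to 0.

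**Figure D2:**
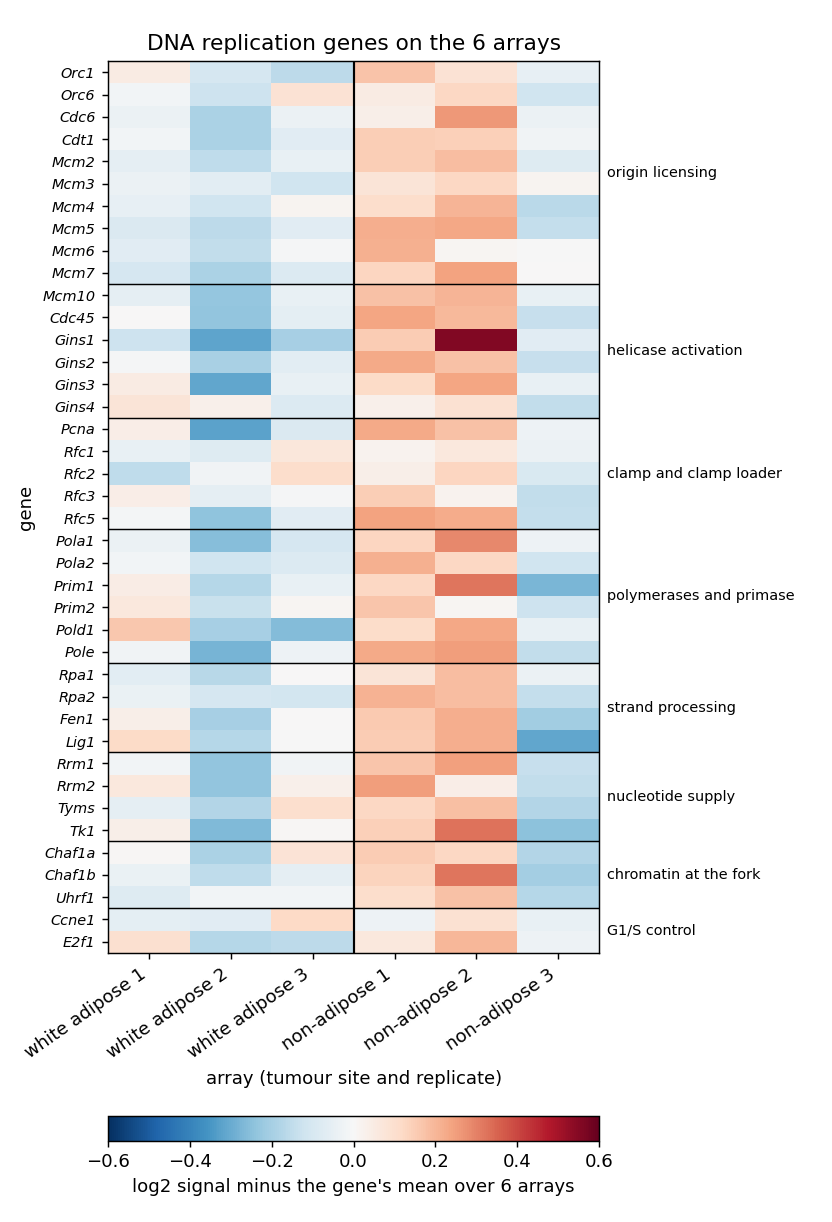
Log2 signal of each of the 40 genes minus its own mean over the 6 arrays (colour), with genes down the page grouped by role and arrays across, white adipose left of non-adipose. Non-adipose replicates 1 and 2 are red in nearly every row, white adipose replicate 2 and non-adipose replicate 3 are mostly blue, and white adipose replicates 1 and 3 lie between.

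The order of the arrays was shared by most members and followed the site only in part. Non-adipose replicates 1 and 2 stood above the white adipose arrays for most genes, and non-adipose replicate 3 did not. Non-adipose replicate 3 was the lowest non-adipose array for 40 of 40 genes, against 33.3% of all genes. White adipose replicate 2 was the lowest white adipose array for 33 of 40, against 26.6% of all genes. Non-adipose replicates 1 and 2 were the highest pair for 30 of 40 genes, against 7.83% of all genes. Either white adipose replicate 2 (27 genes) or non-adipose replicate 3 (9 genes) was lowest of all for 36 of 40, against 30.5% of all genes. Taken singly, these 2 arrays were lowest for 15.2% and 15.4% of all genes. The exceptions were Orc1, Mcm3, Rfc2 and Pold1. The arrays share each other's deviations through the genes' common order, so these shares are given with no test.

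Mean ranks over the 40 genes, with rank 1 the highest of 6 arrays, were 3.53, 5.53 and 3.93 for white adipose replicates 1, 2 and 3 and 1.88, 1.46 and 4.69 for non-adipose replicates 1, 2 and 3. Over all genes they ran from 3.38 to 3.61. The mean log2 signal over the members was 8.13, 7.98 and 8.11 in white adipose tumours and 8.28, 8.33 and 8.03 in non-adipose tumours, which gives 8.07 ± 0.084 and 8.22 ± 0.16 (SD, n = 3 each). Non-adipose replicate 3 thus fell within the white adipose values. Over all genes the array means lay between 6.15 and 6.16. Within non-adipose tumours the gap was wider than the difference between sites. The genes were 0.25 lower in mean log2 signal in replicate 3 than in replicate 1 and 0.30 lower than in replicate 2. For 37 of 40 genes the range within the non-adipose group exceeded the difference between the group means, as it did for 82.6% of all genes. For 26 of 40 the range within the white adipose group did, again against 82.6%.

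**Figure D3:**
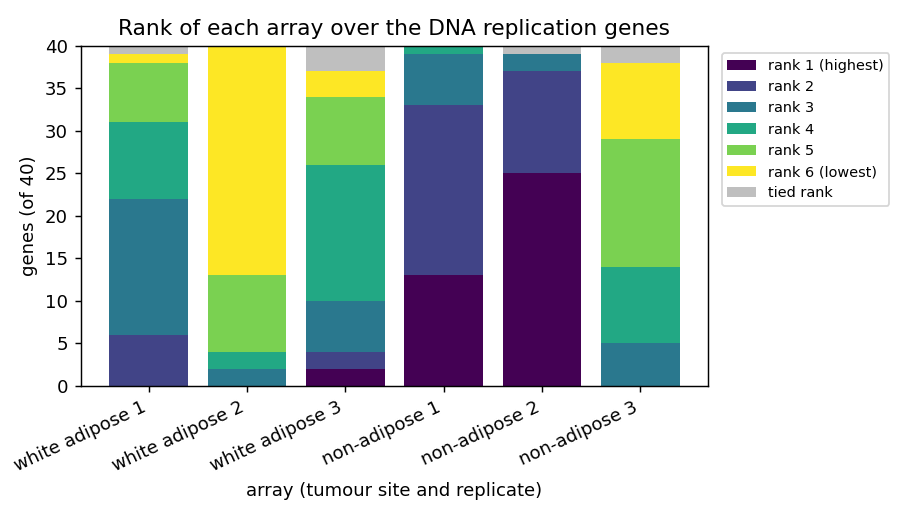
Number of the 40 genes (vertical axis) for which each array held each rank, from rank 1 for the highest of 6 arrays to rank 6 for the lowest, with exact ties in grey. Non-adipose replicate 2 was highest for 25 genes (18.1% of all genes) and replicate 1 for 13 (14.8%). White adipose replicate 2 was lowest for 27 genes (15.2% of all genes) and non-adipose replicate 3 for 9 (15.4%).

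The size of the difference rested on single arrays. The mean over the members was -0.23 with non-adipose replicate 3 left out. It was -0.086 when non-adipose replicate 2 was left out and -0.095 when white adipose replicate 2 was. Non-adipose replicate 3 was the lowest of its group for all 40 genes, so leaving it out had to make every difference more negative. Without it, all 40 genes had a lower mean in white adipose tumours, against 50.7% of all genes. The groups then did not overlap for 30 of 40, against 10.1% of all genes. These are the genes with non-adipose replicates 1 and 2 as the highest pair, so the count repeats that observation. At an unadjusted p under 0.05 by limma, 20 of 40 were lower, against 2.78% of all genes. None of them passed after adjustment even so, the smallest adjusted p of a member being 0.873 in that limma fit. Without white adipose replicate 1, the array with the skin markers, the mean was -0.17, with 38 of 40 genes lower (48.6% of all genes), and without white adipose replicate 3 it was -0.16, with 39 lower (50.1%). The count of lower genes was smaller without the other arrays. It was 32 of 40 without white adipose replicate 2 (52.2% of all genes), 35 without non-adipose replicate 1 (51.2%) and 34 without non-adipose replicate 2 (48.6%). Leaving out non-adipose replicate 1, its replicate 2 or white adipose replicate 2 left 0 of 40 members lower at an unadjusted p under 0.05, against 1.51%, 2.2% and 1.54% of all genes.

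**Figure D4:**
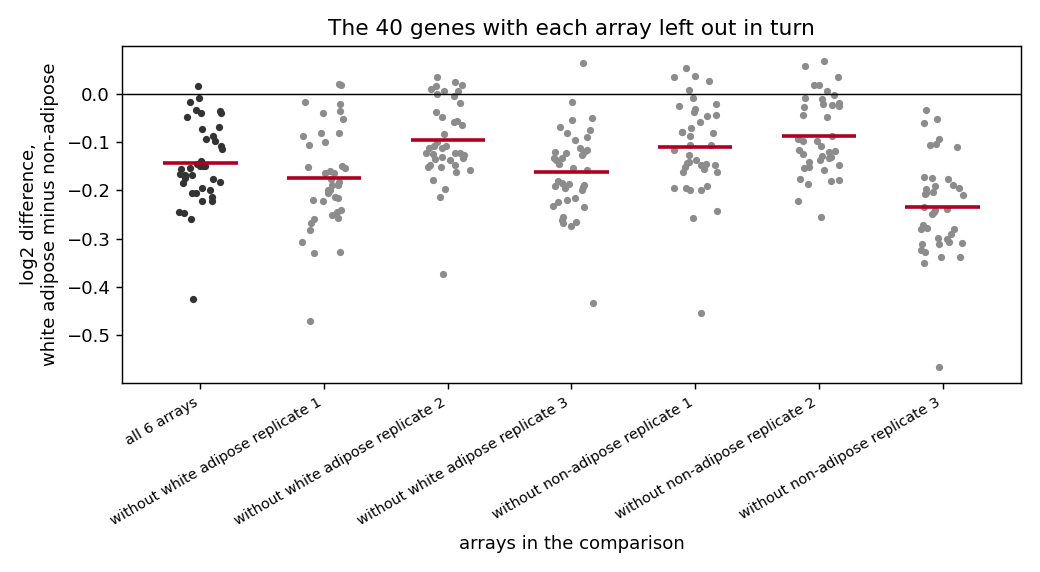
Log2 difference, white adipose minus non-adipose (vertical axis), of the 40 genes as points with all 6 arrays and with each array left out in turn (horizontal axis); red bars are the means over the genes. The mean runs from -0.23 without non-adipose replicate 3 to -0.086 without non-adipose replicate 2, and is -0.14 with all arrays.

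A wider list of 50 replication genes that are not members, such as further origin, polymerase and checkpoint genes, had 47 measured. In white adipose tumours 38 of them were lower by mean (50.2% of all genes were) and 9 higher, with a median difference of -0.10. None passed the test (smallest adjusted p of 0.936 with limma). At an unadjusted p under 0.05 there were 0, against 2.13% of all genes lower and 1.66% higher. The 5 with the smallest p were Pole2, a polymerase epsilon subunit, at -0.21 (SE 0.098), Orc3 at -0.17 (SE 0.080), the chromatin remodeller Hells at -0.28 (SE 0.14), the E2F partner Tfdp1 at -0.16 (SE 0.084) and Ticrr, which helps to fire origins, at -0.28 (SE 0.16). Their list means were 8.001, 7.87 and 7.97 in white adipose tumours and 8.10, 8.13 and 7.90 in non-adipose tumours, the same order of arrays as for the members.

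Mitosis genes, the programme that follows replication, had a lower mean in 22 of 23, against 50.2% of all genes. Their median was -0.091, and none passed the test. Their array means were 9.09, 8.75 and 8.92 in white adipose tumours and 9.17, 9.25 and 8.71 in non-adipose tumours, with non-adipose replicate 3 lowest in place of white adipose replicate 2. Ube2c, which acts in mitotic exit, was at -0.35 (SE 0.16), the checkpoint kinase gene Bub1 at -0.29 (SE 0.23) and Mki67, the common proliferation marker, at -0.059 (SE 0.13). Whether these lists differ from the members was not tested.

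T cell markers ranked the arrays nearly the other way. Their mean log2 signal over 7 genes was 6.33, 6.55 and 6.46 in white adipose tumours and 6.004, 5.67 and 6.84 in non-adipose tumours. Non-adipose replicates 1 and 2, the highest for replication genes, were the lowest, and non-adipose replicate 3 was the highest. Of the 7, 6 had a higher and 1 a lower mean in white adipose tumours (50.2% of all genes were lower), and none passed the test. The 2 with the smallest p were Cd3d, a subunit of the T cell receptor complex, at 0.26 (SE 0.17), and Cd4, the coreceptor of helper T cells, at 0.28 (SE 0.21). Cd3d had 5.52, 5.75 and 5.52 in white adipose tumours, against 5.08, 5.24 and 5.70 in non-adipose tumours. The mean of macrophage markers varied less, between 9.21 and 9.41 in white adipose and 9.33 and 9.43 in non-adipose tumours (10 genes). Single genes could vary more, such as Mrc1 between 7.44 and 9.11. Endothelial markers also had non-adipose replicate 3 highest (6.94), and non-adipose replicate 1 lowest (6.64, 9 genes). Neutrophil markers had non-adipose replicate 3 highest (5.59) and white adipose replicate 1 lowest (5.13, 10 genes). Fibroblast markers had white adipose replicate 1 highest (10.29) and non-adipose replicate 1 lowest (9.74, 9 genes). Skin markers lay between 5.17 and 8.59 in white adipose and 5.18 and 6.36 in non-adipose tumours, and muscle markers between 5.53 and 5.70 in white adipose and 5.55 and 6.90 in non-adipose tumours. The part of these other cells in the replication result was not tested. In tumour RNA of mixed cells, fewer cycling cells and less replication RNA per cell cannot be told apart.

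**Figure D5:**
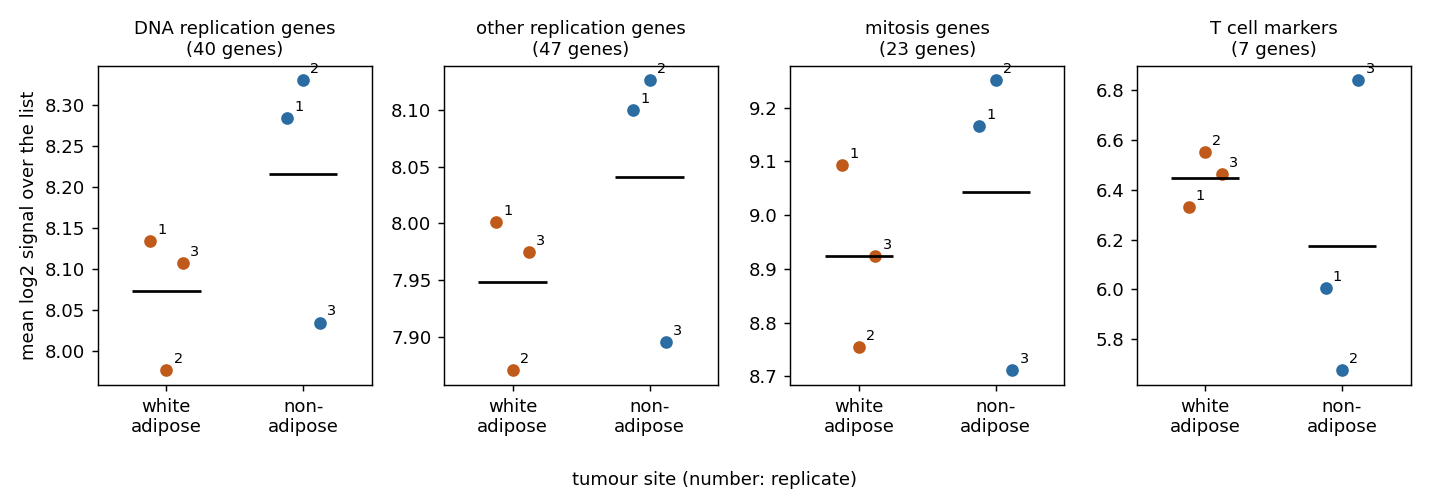
Mean log2 signal (vertical axes, each with its own scale not starting at 0) over the DNA replication genes, other replication genes, mitosis genes and T cell markers in the 3 white adipose and 3 non-adipose tumours; numbers are replicates and bars group means. Non-adipose replicates 1 and 2 are highest in the first 3 panels and lowest in the T cell panel, and non-adipose replicate 3 is low in the first 3 and highest in the T cell panel.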

How the data were processed

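Total RNA of 6 tumours was labelled as cDNA and hybridised to 6 Affymetrix whole-transcript arrays, per the labels' protocols. The deposited log2 signals (41345 probe sets, 0 missing values) were made by the authors with Affymetrix Expression Console, per the submitters' processing notes; its version and any normalization are not stated there. The scale was read from the values, 0.973 to 13.6. Scanner intensities, detection calls and scan batches were not used, so the number of arrays limits the precision.

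Probe sets with exactly 1 symbol in the platform annotation (23521) were kept, and of several for a gene the one with the highest mean. Pole, Rpa1, Fen1 and Rrm2 had 2 each. A linear model for each of 22180 genes (lmFit and eBayes of limma 3.58.1, in R 4.3.3) set white adipose against non-adipose, with Benjamini-Hochberg adjustment over all genes and 0.05 as the threshold. The fit was tested on simulated data with independent noise and planted changes larger than the members' differences. It was not tested on differences of the members' size. Labels name the samples biological replicates, and the design text gives 3 mice per group. The members, lists, roles and alternatives were chosen with earlier results of these data known. In each role the genes with the smallest p and with the widest range are given array by array. Mcm3, Mcm6 and Gins4 are also given in this way, outside this rule and with their values known. From the other lists up to 2 genes with the smallest p could be named, 5 for the wider replication list, and Mki67 in every case; Epcam, Cdh1, Krt18, Cdx2, Vil1, Muc2, Adipoq and Fabp4 were named after their values were seen. Alternatives were array medians subtracted, quantile normalization, the mean over probe sets, dim genes left out, another prior, array weights, a replicate block and each array left out.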

Additional observations from a re-analysis of the deposited data

How the results depend on the processing

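No member and no gene passed the threshold under any of the 13 alternatives; with all arrays 841 genes in all were at an unadjusted p under 0.05 by limma. The members' mean difference lay between -0.23 and -0.086 with 1 array left out, and was -0.16 with array medians subtracted, where all 40 genes were lower (57.9% of all genes, whose median was then -0.022), -0.13 after quantile normalization and -0.17 with array weights. Members lower at an unadjusted p under 0.05 were 3 with all arrays (2.13% of all genes) and 9 with array weights (4.03%). With 1 array left out they were 0 to 20 (1.51% to 4.42% of all genes). Members whose groups did not overlap were 3 of 40 with array medians subtracted (7.07% of all genes), against 5 of 40 (3.97%), and 5 to 30 with 1 array left out (7.42% to 12.1% of all genes). Members lower by mean were 32 to 40 with 1 array left out (48.6% to 52.2% of all genes). Differences of 12 genes given by array, which leave out Mcm3, Mcm6 and Gins4, kept their direction in 152 of 156 repeats. Part of this count was fixed in advance. Leaving out dim genes, another prior and the replicate block cannot change a difference. The mean over probe sets could change only that of Rpa1 among these genes. The reversals among these 12 were Lig1, between -0.20 and 0.059, and Prim1, between -0.28 and 0.018, with 1 array left out. Both had differences below their standard errors. Gins4 changed sign with array medians subtracted (-0.0036), Rfc3 after quantile normalization, and Gins4 and Ccne1 with array weights. With 1 array left out, 7 members changed sign without white adipose replicate 2 (Orc6, Rfc3, Prim2, Lig1, Rrm2, Chaf1a and Ccne1), 5 without non-adipose replicate 2 (Orc6, Rfc2, Prim1, Lig1 and Ccne1), 4 without non-adipose replicate 1 (Rfc3, Prim2, Lig1 and Rrm2), 3 without white adipose replicate 1 (Gins4, Rfc2 and Ccne1), 1 without non-adipose replicate 3 (Gins4) and 0 without white adipose replicate 3. Same-numbered arrays had correlations of deviations of 0.142, 0.0640 and 0.0641, and white adipose replicate 2 correlated best with another number (0.0864), so the numbers were not taken as pairs. With the replicate block the mean difference was -0.14. At an unadjusted p under 0.05, 0 members were then lower (2.60% of all genes), against 3 without the block (2.13%).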

Other observations

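Of 17 measured genes that restrain the cell cycle, 10 were lower by mean in white adipose tumours (50.2% of all genes were) and 7 higher, with a median log2 difference of -0.029, and none passed the test with limma. Cdkn1a, an inhibitor of cyclin-dependent kinases that also binds PCNA, had log2 signals of 8.96, 8.37 and 8.77 in white adipose tumours and 9.38, 9.23 and 9.08 in non-adipose tumours. Every white adipose array lay below every non-adipose array, with a difference of -0.53 (SE 0.17, adjusted p = 0.936). Btg2, an antiproliferative gene that responds to p53, had 6.88, 6.25 and 6.46 in white adipose tumours and 6.90, 6.84 and 7.50 in non-adipose tumours, a difference of -0.55 (SE 0.23). Non-adipose replicate 3, the lowest of its group for all 40 replication genes, was the highest of the 6 arrays for Btg2. For Cdkn1a it was the lowest of its group. The mean over the 17 genes was 8.12, 7.95 and 7.96 in white adipose tumours and 8.07, 8.13 and 8.08 in non-adipose tumours.

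For 4 members a second, dimmer probe set was not used above. The second probe set of Fen1 differed by 0.011, of Pole by -0.0054, of Rpa1 by -0.15 and of Rrm2 by -0.19. Their mean log2 signals were 5.99, 4.85, 4.61 and 5.09, against 6.78, 7.86, 8.36 and 8.37 for the probe sets used, without a detection call.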
